A study of Mus musculus with 24 samples.

Results

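The 9 genes described here, Rag1, Rag2, Dntt, Ptcra, Cd4, Cd8a, Cd8b1, Cd1d1 and Themis, serve the assembly of the T cell receptor and the CD4 CD8 double-positive stage of the thymus, and were chosen by name for those roles. The array held all 9 of them among 21154 named genes, on 15 of its 55681 probes, each matched through the accession of the probe. Thymocytes came from male and female C57BL/6J mice aged 4 to 5 weeks, dispersed mechanically from the thymus and strained without sorting. In each sex the control mice were not irradiated, the high dose mice received 1.75 Gy of γ-rays, the low dose mice received 0.075 Gy of X-rays, and the mice of the radio-adaptive response (RAR) regimen received the X-ray dose first and the γ-ray dose after an interval of 6 h. The 8 groups had 3 arrays each, from independent thymocyte samples of 3 mice, which limits the precision of every value below, and the time of harvest was not given in the sources used here. In preparations of this kind, fewer cells of a type and less RNA per cell cannot be told apart.

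Antigen receptor genes are assembled by V(D)J recombination, in which the RAG1-RAG2 recombinase cuts at recombination signals and non-homologous end joining seals the breaks. In thymocytes the TCRβ chain is assembled first and is tested with the pre-T alpha chain at the double-negative stage. Cells that pass proliferate, become double-positive for CD4 and CD8, express the recombinase again to assemble TCRα, and are then selected into the CD4 or CD8 lineage. Double-positive thymocytes form most of a young thymus and are known for their sensitivity to ionizing radiation.

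The 250 bases before the start of the gene are shown for both recombinase genes and for Ptcra and Cd8a. The windows are from RefSeq on GRCm38.p6, and capitals mark each E-box, CANNTG on either strand, the motif bound by basic helix-loop-helix E proteins. The Rag1 window lies on the minus strand at chr2:101649533-101649782. The Rag2 window lies on the plus strand at chr2:101624462-101624711. The Ptcra window lies on the minus strand at chr17:46763713-46763962, and the Cd8a window on the plus strand at chr6:71373177-71373426.
Rag1: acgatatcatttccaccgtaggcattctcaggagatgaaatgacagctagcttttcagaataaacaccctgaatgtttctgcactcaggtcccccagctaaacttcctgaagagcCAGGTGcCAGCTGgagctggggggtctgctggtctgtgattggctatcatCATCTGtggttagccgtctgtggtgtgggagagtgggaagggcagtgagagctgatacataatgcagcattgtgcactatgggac
Rag2: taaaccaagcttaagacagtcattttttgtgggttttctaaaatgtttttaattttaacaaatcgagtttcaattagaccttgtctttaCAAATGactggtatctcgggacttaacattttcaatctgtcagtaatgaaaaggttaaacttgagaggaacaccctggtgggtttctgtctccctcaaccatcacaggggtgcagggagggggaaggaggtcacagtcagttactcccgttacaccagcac
Ptcra: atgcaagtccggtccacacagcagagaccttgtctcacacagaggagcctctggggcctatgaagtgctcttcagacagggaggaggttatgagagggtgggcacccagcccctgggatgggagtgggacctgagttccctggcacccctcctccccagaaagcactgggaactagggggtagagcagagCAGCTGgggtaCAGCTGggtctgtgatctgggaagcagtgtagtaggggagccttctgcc
Cd8a: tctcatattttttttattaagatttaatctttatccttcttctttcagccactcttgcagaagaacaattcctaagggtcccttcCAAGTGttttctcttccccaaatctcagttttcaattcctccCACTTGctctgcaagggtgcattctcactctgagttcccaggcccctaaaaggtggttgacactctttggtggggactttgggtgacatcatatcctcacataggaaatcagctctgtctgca
The Rag1 window held 3 E-boxes, the Rag2 window 1, the Ptcra window 2, both spelled CAGCTG, and the Cd8a window 2. Windows were found for 6 of the 9 genes, 7 windows in all, of which 2 belong to Themis and overlap, so that they share an E-box. Each of the 7 held an E-box, as did 66.2% of 32851 promoters of the same length. The RUNX motif TGTGGT, searched on both strands, occurred in 1 of the 7 windows, that of Rag1 with 2 matches, and in 14% of all promoters. The ETS motif CCGGAA and the TCF motif CTTTGA were in 0 of the 7 windows and in 12% and 13.8% of all promoters. These matches describe letters in the windows. Cd4, Cd8b1 and Cd1d1 had no window.

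On each array Cy5 carried the thymocyte RNA and Cy3 a pool of amplified Universal Mouse RNA, the reference, and no dyes were swapped. A value here is log2(Cy5/Cy3) unless another quantity is named, so that 0 means equal signal in both channels, and each gene is represented by its probe with the brightest Cy5. A change counts as called below where it reached 1.5-fold and its limma p, adjusted by Benjamini-Hochberg for all 55681 probes, was under 0.05. The share of spots above background ran from 34.7% to 71.8% in Cy5, both ends set by female RAR arrays, and from 32.9% to 75.3% in Cy3. All 15 probes were above background in Cy5 on all 24 arrays. In Cy3 the probes of Rag1, Dntt, Cd4, Cd8b1 and Cd1d1 were above background on all 24 arrays, those of Cd8a and Themis on 23, that of Ptcra on 21 and that of Rag2 on 6, so the Rag2 ratio rested on a reference signal near background.

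RAR against control asks what the whole adaptive regimen did relative to no irradiation, and 4 of the 9 genes were called on the log2 ratio, as were 26% of all probes. Rag1 and Cd8b1 were called higher (12.4% of all probes) and Ptcra and Themis lower (13.7%). The directions of Rag1 and the CD8 genes depended on the reference: in the Cy5 channel alone no member was called higher and 6 of 9 were called lower, beside 17.1% of the 9959 detected genes. The median change of the 9 genes was -0.29 on the log2 ratio and -0.66 in centred Cy5, where the medians of all detected genes were -0.17 and -0.12. Both readings are given gene by gene below.

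Rag1 encodes the catalytic subunit of the recombinase. Its log2 ratio on the 6 control arrays was 5.29 at the lowest, 5.57 at the median and 5.77 at the highest, and on the 6 RAR arrays 6.13, 6.39 and 6.55. All RAR arrays lay above all control arrays, as for 9.92% of all probes, and the change was 0.79 (SE 0.10, adjusted p = 4.1e-06, limma). In Cy5 alone, centred on each array at the median of the genes detected on all 24 arrays, Rag1 ran from 5.58 to 5.90 on control arrays and from 5.22 to 5.83 on RAR arrays. The groups overlapped and RAR was lower by 0.30 on the log2 scale (change -0.30, SE 0.097, adjusted p = 0.011), short of 1.5-fold. Over the same arrays the centred Cy3 of the reference at this probe changed by -1.16 (adjusted p = 8.3e-05), from between -0.09 and 0.54 to between -1.34 and -0.58. The rise of the Rag1 ratio thus went with a lower reference signal, and the cause was not tested.

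Rag2 encodes the other recombinase subunit, which binds modified histone H3. Its ratio varied widely, from 7.79 through a median of 8.24 to 9.90 on control arrays and from 5.97 through 8.34 to 8.76 on RAR arrays. The groups overlapped, and the change of -0.60 (SE 0.41, adjusted p = 0.28) was not called. In centred Cy5, where no reference is needed, Rag2 ran from 1.80 to 2.24 on control arrays and from 1.10 to 1.81 on RAR arrays. The highest RAR array only just passed the lowest control array, and Rag2 fell by 0.66 (SE 0.10, adjusted p = 3.0e-05).

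Dntt encodes terminal deoxynucleotidyl transferase, which adds untemplated nucleotides at the junctions. Its ratio was 8.07, 8.20 and 8.61 at the lowest, median and highest on control arrays and 7.79, 7.91 and 8.06 on RAR arrays. No RAR array reached a control array, as was the case in this direction for 14.9% of all probes, but the change of -0.33 (SE 0.10, adjusted p = 0.014) was short of 1.5-fold. In centred Cy5 the gap was wider: 6.41 to 6.84 on control arrays, 5.48 to 5.98 on RAR arrays, a fall by 0.99 (1.99-fold, adjusted p = 3.4e-08). The centred reference signal of the probe fell by 0.72 (adjusted p = 2.2e-05).

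Ptcra encodes the pre-T alpha chain, which pairs with TCRβ before TCRα is made. Its ratio was 5.50, 5.58 and 5.79 on control arrays and 4.60, 4.85 and 5.72 on RAR arrays. Of the RAR arrays only male RAR replicate 1, at 5.72, reached the control values, and the change was -0.65 (SE 0.16, adjusted p = 0.0026). In centred Cy5 Ptcra was 1.47, 1.55 and 1.80 on control arrays and -0.52, -0.19 and 0.31 on RAR arrays. The groups were far apart, the fall was 1.72 (SE 0.11, adjusted p = 8.4e-10), and at 3.30-fold it was the largest of the 9 genes. The call on the ratio was lost without male RAR replicate 2, where the change was -0.54 (adjusted p = 0.0089). The Cy3 signal under this ratio was above background on 3 of the 6 RAR arrays and on all 6 control arrays.

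Cd8a and Cd8b1 encode the chains of the CD8 coreceptor, which binds MHC class I. The Cd8b1 ratio was 4.87, 4.91 and 5.02 on control arrays and 5.43, 5.56 and 5.93 on RAR arrays. These did not overlap, as for 9.92% of all probes, and the change was 0.68 (SE 0.10, adjusted p = 2.1e-05). The Cd8a ratio was 6.00, 6.31 and 6.56 on control arrays and 6.48, 6.79 and 7.24 on RAR arrays, overlapping narrowly, with a change of 0.49 (SE 0.14, adjusted p = 0.0068) that was short of 1.5-fold. In centred Cy5 both genes lay the other way without overlap, though the share of detected genes that separated in this channel was not counted. Cd8a ran from 3.42 to 3.60 on control and from 2.51 to 3.14 on RAR arrays, a fall by 0.77 (1.70-fold, adjusted p = 3.1e-07). Cd8b1 ran from 3.78 to 4.16 and from 3.19 to 3.72, a fall by 0.59 (1.51-fold, adjusted p = 2.8e-05). The centred reference signal fell by 1.32 at Cd8a (adjusted p = 7.4e-05) and by 1.33 at Cd8b1 (adjusted p = 2.4e-05).

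Cd4 encodes the coreceptor for MHC class II and stood apart from the CD8 genes. Its ratio was 2.90, 3.15 and 3.26 on control arrays and 2.99, 3.32 and 3.46 on RAR arrays. Of the 6 RAR arrays 5 lay above every control array and female RAR replicate 2, at 2.99, lay among the lower ones, and the change of 0.18 (SE 0.076, adjusted p = 0.079) was not called. In centred Cy5 the ranges were 3.21 to 3.68 and 3.19 to 3.64, with a change of -0.03 (adjusted p = 0.76). An adjusted p of this size does not show that Cd4 stayed the same.

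Cd1d1 encodes the lipid-presenting molecule on double-positive thymocytes that selects natural killer T cells. Its ratio was 3.79, 3.88 and 4.06 on control arrays and 3.42, 3.63 and 3.79 on RAR arrays. Every RAR array lay below every control array, if only just, as for 14.9% of all probes, and the change of -0.29 (SE 0.070, adjusted p = 0.0024) was short of 1.5-fold. In centred Cy5 it was -0.27 (adjusted p = 0.0033), with a reference change of -0.04 (adjusted p = 0.38).

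Themis encodes a protein of T cell receptor signalling needed for positive selection. Its ratio was 5.53, 5.90 and 6.55 on control arrays and 4.77, 5.08 and 5.78 on RAR arrays. RAR arrays were lower with some overlap, and the change was -0.75 (SE 0.14, adjusted p = 0.00023). In centred Cy5 Themis ran from 1.30 to 1.87 on control and from 0.74 to 1.16 on RAR arrays. That was a fall by 0.67 (1.59-fold, adjusted p = 7.7e-06), and the reference changed by 0.02 (adjusted p = 0.92). For Themis, Ptcra, Dntt and Cd1d1 the ratio and the thymocyte channel thus pointed the same way, while for Cd8a and Cd8b1 they pointed in opposite ways. For Rag1 the mean changes were opposite too, but its Cy5 change was short of 1.5-fold and its arrays overlapped. For Rag2 both mean changes were negative, but the ratio change was not called. Its mean ratio fell in females and rose in males, without a called sex by treatment interaction (adjusted p = 0.78, limma F-test). The Cy3 signal of this probe was above background on 1 of the 6 RAR arrays. In males the Rag2 ratio averaged 8.06 on control and 8.58 on RAR arrays, while its centred Cy5 fell.

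**Figure D1:**
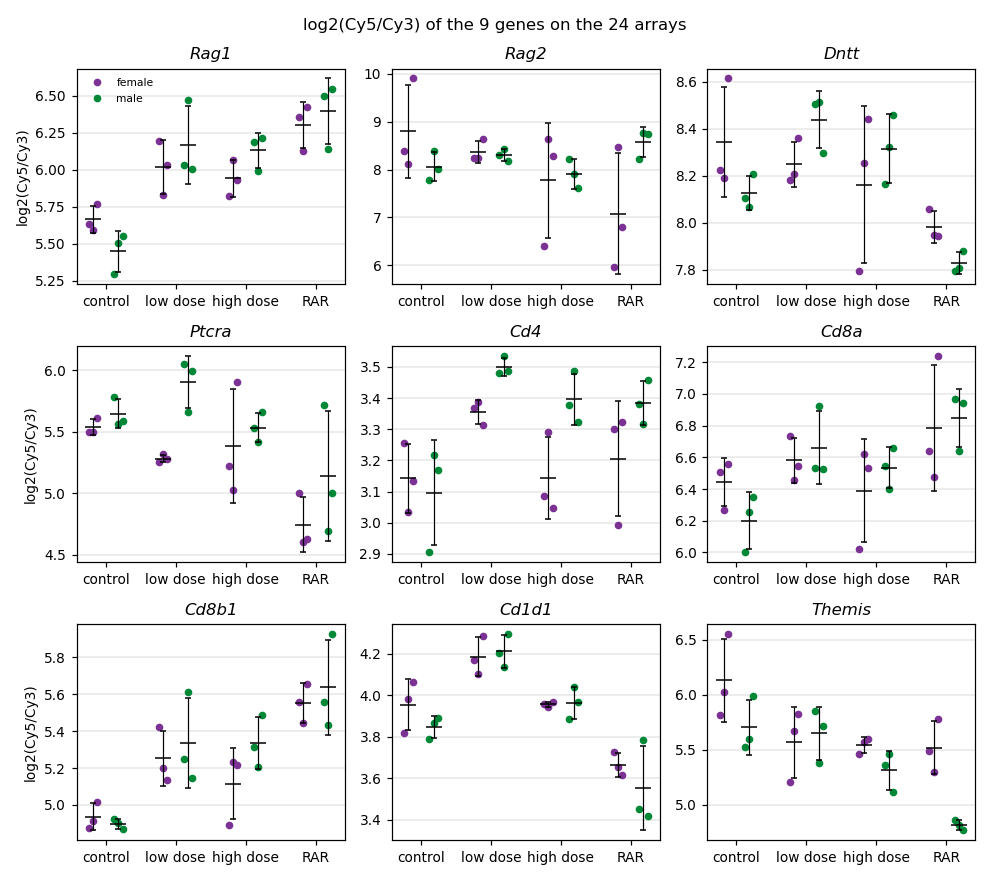
Log2(Cy5/Cy3) (vertical axis, log2 units) of the 9 genes by treatment, 1 point per array, females in purple and males in green, with the mean and SD of the 3 arrays of a group as bars. Rag1 and Cd8b1 lie higher on all 6 RAR arrays than on the control arrays (9.92% of all probes), while Dntt and Cd1d1 lie lower (14.9%). For Cd8a and Cd8b1 the direction turns in the Cy5 channel alone. For Rag1 the mean Cy5 change is opposite too, but short of 1.5-fold and with overlapping arrays.

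**Figure D2:**
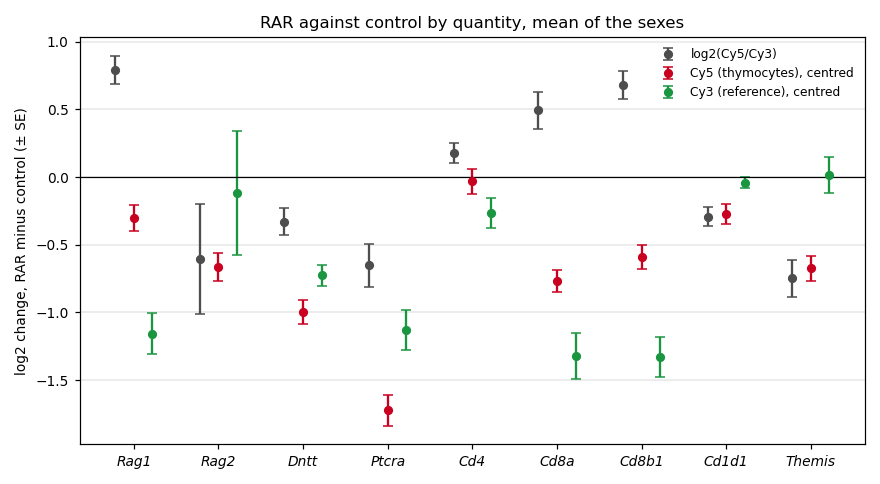
Change from control to RAR (vertical axis, log2 units, mean of the sexes, bars are SE) of the log2 ratio, of centred Cy5 and of centred Cy3 for each of the 9 genes. For Rag1 the ratio is at 0.79, Cy5 at -0.30 and Cy3 at -1.16; Cd8a and Cd8b1 show the same arrangement, and for Themis and Cd1d1 Cy3 is near 0.

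The reference signal was set beside the thymocyte signal for all 9 genes because the ratio change is, apart from the centring, the Cy5 change less the Cy3 change. In centred Cy3, 5 of the 9 genes were called lower in RAR than in control (Rag1, Dntt, Ptcra, Cd8a and Cd8b1), against 0.994% of the detected genes, 99 of 9959. Cd4 (-0.27, adjusted p = 0.050), Cd1d1, Rag2 and Themis were not called in Cy3. The 5 genes were also called lower in Cy5 except Rag1, which was lower by less than 1.5-fold.

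Pixel medians less background, before any dye normalization or scaling between arrays, are given for both channels. For Rag1 the Cy3 signal ran from 716 through a median of 977 to 1248 on control arrays and from 340 through 469 to 566 on RAR arrays. Its Cy5 signal was 45944, 62526 and 83441 on control arrays and 19317, 25836 and 32916 on RAR arrays. Both channels were lower on every RAR array than on any control array. Dntt had Cy5 from 81892 to 116140 on control and from 17836 to 30306 on RAR arrays, and Cy3 from 182 to 260 and from 133 to 154. Cd8b1 had Cy3 from 378 to 473 and from 136 to 191, and Ptcra Cy3 from 43 to 54 and from 7.5 to 30. For these genes too the Cy3 ranges did not overlap, and the share of all probes without overlap in raw signal was not counted. By contrast Cy3 overlapped for Cd4, at 821 to 1526 on control and 755 to 1125 on RAR arrays, and for Cd1d1, at 184 to 218 and 162 to 199. Over all probes the 75th percentile of the Cy3 signal lay between 215 and 243 on the 24 arrays. That of Cy5 lay between 260.5 and 427 on control arrays and between 188 and 245 on RAR arrays, so lower raw Cy5 on RAR arrays was shared by the array as a whole, and the Cy5 changes of single genes are read here from the centred values only. The cause of the lower reference signal at these probes was not tested.

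**Figure D3:**
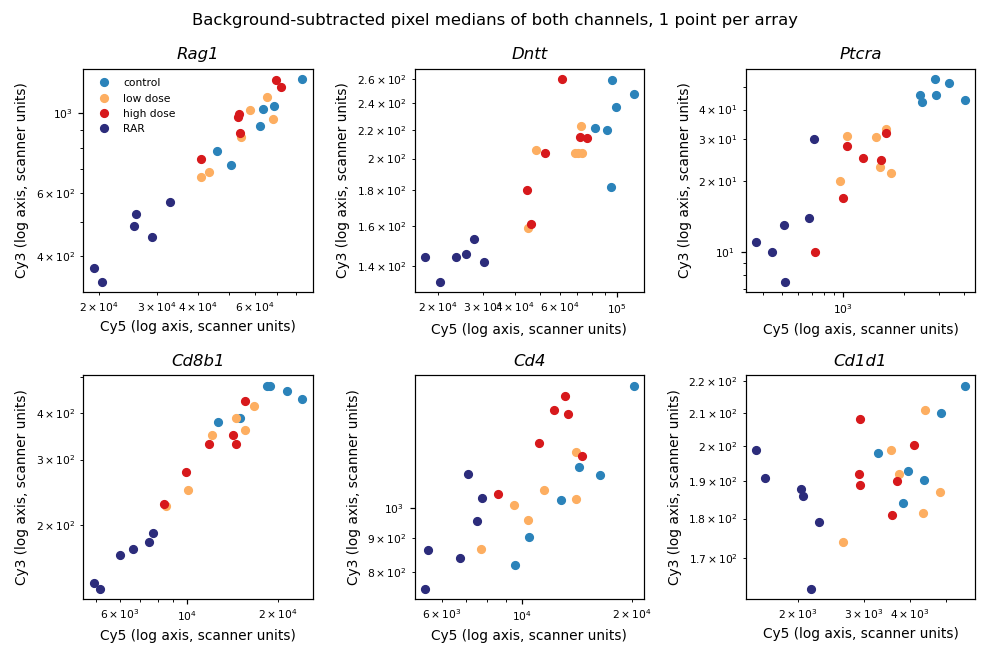
Background-subtracted pixel medians of Cy5 (horizontal, log axis, scanner units) and Cy3 (vertical, log axis, scanner units) for 6 of the genes, 1 point per array, coloured by treatment. RAR points lie below the control points on both axes for Rag1, Dntt, Ptcra and Cd8b1, and overlap with them in Cy3 for Cd4 and Cd1d1, on arrays whose raw Cy5 was lower over all probes. The share of all probes that separate in raw signal was not counted.

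**Figure D4:**
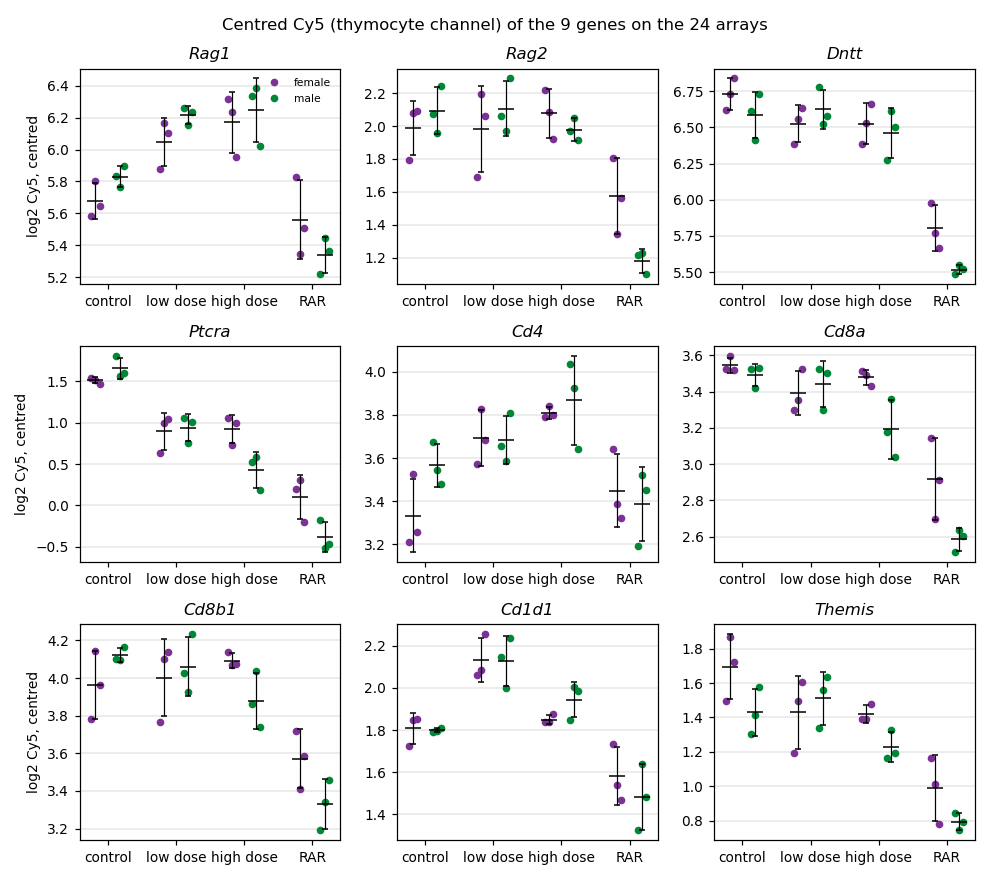
Log2 Cy5 signal centred on the median of the detected genes (vertical axis, log2 units) by treatment, 1 point per array, females in purple and males in green, with mean and SD of 3 arrays. RAR arrays lie below control arrays without overlap for Dntt, Ptcra, Cd8a, Cd8b1 and Themis, and overlap with them for Rag1, Rag2, Cd4 and Cd1d1. The share of genes that separate in this way was not counted in Cy5. On the ratio it was 14.9% of all probes.

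High dose and low dose against control ask what each irradiation did alone. On the log2 ratio 0 of 9 genes were called after high dose, where 11.5% of all probes were called, and 0 of 9 after low dose, where 9.92% were. At an adjusted p under 0.05 but short of 1.5-fold, Rag1 was higher after high dose (0.48, SE 0.10, adjusted p = 0.0018) and after low dose (0.54, SE 0.10, adjusted p = 0.00077). Its ratio was 5.82, 6.03 and 6.21 on high dose arrays and 5.83, 6.03 and 6.47 on low dose arrays, all above the highest control array at 5.77, a separation seen for 5.41% and 4.73% of all probes. Centred Cy5 of Rag1 had the same sign, 0.45 after high dose (adjusted p = 0.0013) and 0.38 after low dose (adjusted p = 0.0073). After RAR its mean was below control in this channel (-0.30), short of 1.5-fold and with overlapping arrays. With the slide as a block that RAR change was -0.34 (adjusted p = 0.090, limma).

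Ptcra was the only member called in centred Cy5 after a single exposure. It was 0.18, 0.66 and 1.05 on high dose arrays and 0.64, 1.01 and 1.06 on low dose arrays, all below the lowest control array at 1.47. The share of detected genes that separated in this way in Cy5 was not counted. Ptcra fell by 0.90 after high dose (1.87-fold, adjusted p = 7.3e-06) and by 0.67 after low dose (1.59-fold, adjusted p = 0.00024), where 6.46% and 4.69% of the detected genes were called lower. On the ratio Ptcra changed by -0.13 (adjusted p = 0.63) and by -0.0012 (adjusted p = 0.999), and the centred reference signal of its probe changed by -0.81 and -0.71 in the same comparisons. Cd1d1 was higher in centred Cy5 after low dose by 0.33 (adjusted p = 0.0024) and Cd4 after high dose by 0.39 (adjusted p = 0.0030), each short of 1.5-fold. Dntt, Cd8a, Cd8b1, Rag2 and Themis had Cy5 changes between -0.24 and 0.00 in both comparisons, none with an adjusted p under 0.05. Low dose against high dose, added after the values were seen, gave 0 called members on either quantity, and 0.00359% of all probes were called on the ratio. The Ptcra difference in Cy5 was 0.24 (adjusted p = 0.58).

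**Figure D5:**
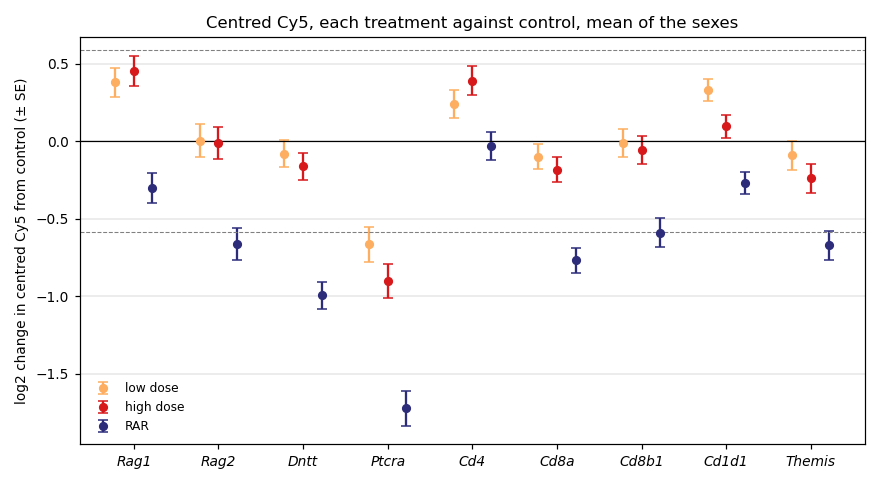
Change in centred Cy5 from control (vertical axis, log2 units, mean of the sexes, bars are SE) after low dose, high dose and RAR for each gene, with dashed lines at 1.5-fold. Ptcra lies below the lower line after all 3 treatments, and the other 8 genes lie between the lines after either dose alone.

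RAR against high dose compares the regimen with the challenge alone, and RAR against low dose with the priming dose alone. Since the time of harvest was not given, these groups may also differ in time since exposure. On the ratio 0 of 9 genes were called against high dose (9.52% of all probes) and 2 of 9 against low dose (9.07% of all probes). These 2 were Ptcra, with a change of -0.65 (SE 0.16, adjusted p = 0.0057), and Cd1d1, with -0.59 (SE 0.070, adjusted p = 9.9e-06). The Cd1d1 ratio was 4.10, 4.19 and 4.29 on low dose arrays, all above the RAR maximum of 3.79 (6.36% of all probes), but at barely 1.5-fold its call was lost when any of 5 arrays was left out (changes from -0.58 to -0.56). In centred Cy5, 4 of 9 genes were called against high dose, all lower, where 3.65% of the detected genes were: Rag1 fell by 0.76, Rag2 by 0.65, Dntt by 0.83 and Ptcra by 0.82. Cd8a, at -0.58 (adjusted p = 5.2e-05), lay just inside the 1.5-fold limit. Against low dose 6 of 9 were called lower, where 4.53% of the detected genes were: Rag1 by 0.68, Rag2 by 0.67, Dntt by 0.91, Ptcra by 1.06, Cd8a by 0.67 and Cd1d1 by 0.60. Without both female RAR arrays at the ends of the detection range only Dntt (-0.83) and Ptcra (-1.01) remained called against low dose, 2 of 9, and Rag1, Dntt and Ptcra against high dose, 3 of 9. These comparisons share their RAR arrays, so their calls are not independent of each other or of RAR against control.

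The study asked whether the sexes differ in RAR, and 0 of the 9 genes were called between male and female RAR (0.438% of all probes). The F-test of sex by treatment gave 0 of 9 genes, beside 2 probes in all (0.00359%). Only Themis and Dntt did not overlap between the sexes on the ratio. The smallest exact permutation p at 3 arrays against 3 is 0.1, and the share of all probes without overlap was not counted. Dntt lay between 7.79 and 7.88 on male and between 7.94 and 8.06 on female RAR arrays. The wider gap was that of Themis. Its ratio was 4.77, 4.82 and 4.86 on the male RAR arrays and 5.29, 5.49 and 5.78 on the female RAR arrays. The difference was -0.70 (SE 0.20, adjusted p = 0.16, limma). In centred Cy5 the difference was -0.19 (adjusted p = 0.40), and the reference was higher by 0.50 in males (adjusted p = 0.18). The second Themis probe differed the other way on the ratio, by 1.06. In centred Cy5 all 9 genes were lower in male than in female RAR, by between 0.06 (Cd4) and 0.49 (Ptcra), with 0 called (0.291% of the detected genes). The median difference of the detected genes was -0.018, and the share of them lower in males was not counted. This direction depended on the centring. Before centring, mean Cy5 was higher in male RAR for Rag1, Dntt, Cd4, Cd8b1, Cd1d1 and Themis, and lower for Rag2, Ptcra and Cd8a. From control to RAR 5 of 9 genes were called in females on the ratio (Rag1, Rag2, Ptcra, Cd8b1 and Themis, beside 20.5% of all probes) and 4 of 9 in males (Rag1, Cd8a, Cd8b1 and Themis, beside 24.6%). The Rag1 ratio rose by 0.64 in females (adjusted p = 0.0024) and by 0.95 in males (adjusted p = 4.8e-05), while its centred Cy5 changed by -0.12 (adjusted p = 0.45) and -0.49 (adjusted p = 0.0084). Within each sex the fall of Ptcra in Cy5 from control to RAR was called, by 1.41 in females (adjusted p = 2.4e-06) and by 2.04 in males (adjusted p = 2.5e-08).

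The arrays lay on 3 slides of 8, with all female control arrays on 1 slide and all female high dose arrays on another. Slide 2 alone held control and RAR arrays of the same sex, 1 male array of each. Between those, the ratio differed by 1.21 for Rag1, 0.97 for Cd8a, 0.63 for Cd8b1, -0.66 for Themis and -0.07 for Ptcra. With slide as a block, RAR against control gave Rag1 0.79 (adjusted p = 0.0032) and called Cd8a too (0.64), while Cd8b1 (0.52), Ptcra (-0.46) and Themis (-0.37) were no longer called. In centred Cy5 with the same block Ptcra was at -1.71, Dntt at -0.91 and Cd8a at -0.69, all called, while Cd8b1 at -0.51 and Rag2 at -0.55 were not. From control to RAR without the same pair of female RAR arrays, Cd8b1 in Cy5 was at -0.52 and Rag2 at -0.55, no longer called, and Ptcra was at -1.67, with 4 of 9 genes called under either setting. With raw Cy5, centred in the same way, 4 of 9 were called too, and Themis (-0.39) and Rag2 (-0.44) were not. Without the pair of arrays Rag1 was at -0.17 in Cy5 (adjusted p = 0.18).

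Of these genes 6 had a second probe, dimmer in Cy5. The ratios of both probes correlated over the 24 arrays with r = 0.87 for Cd8a, 0.72 for Cd1d1, 0.47 for Themis, 0.40 for Cd4, 0.37 for Rag2 and -0.35 for Rag1, as a description of arrays that share treatments and slides. From control to RAR the second Rag1 probe changed by -1.22 on the ratio, opposite to the first, and its reference signal was above background on 2 of 24 arrays. The second probes of Themis (-1.53) and Cd1d1 (-0.84) were called lower on the ratio. In centred Cy5 the second probes changed by -0.41 for Rag1, -0.87 for Rag2, -0.95 for Cd8a, -0.81 for Cd1d1 and -0.63 for Themis, each in the direction of the first probe, and by 0.22 for Cd4 (adjusted p = 0.081).

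Other genes of the same steps were followed from lists chosen by function, and are described by counts without a list test. From control to RAR, 22.1% of the detected genes were called lower and 18.7% higher on the ratio, and 17.1% lower and 21.8% higher in centred Cy5, and the list counts below are to be read against these shares. Of 14 end joining genes, 6 were called lower and 1 higher on the ratio from control to RAR, and 5 lower and 1 higher in centred Cy5. Their median change on the ratio was -0.52, beside -0.17 over the detected genes. Among them Xrcc5, a Ku subunit that binds broken ends, fell by 1.18, Lig4, the ligase that joins them, by 1.03, and Nhej1, a partner of the ligase, by 1.23. Dclre1c, which encodes the Artemis nuclease that opens the hairpin ends made by RAG, rose by 0.96. Of 16 genes of the T cell receptor complex and its proximal signalling, 1 was lower and 1 higher on the ratio, and 2 lower in Cy5. Of 16 transcription factors of the double-positive stage, 5 were lower and 1 higher on the ratio, and 7 lower and 0 higher in Cy5. Tox, a factor of positive selection, fell by 1.13 and the E protein genes Tcf3 and Tcf12 by 0.86 and 0.87. The higher one was Satb1, a chromatin organizer of thymocytes, at 0.73 on the ratio but -0.52 in Cy5, with a reference change of -1.32, the same arrangement as Rag1.

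Lists of neighbouring stages and of other cell types were counted in the same way. Of 14 other surface and survival genes of the double-positive stage, 2 were lower and 2 higher on the ratio, and 7 lower and 0 higher in Cy5. Of 9 factors of the CD4 or CD8 lineage, 2 were lower and 2 higher on the ratio, and 2 lower and 5 higher in Cy5. The 2 lower on the ratio, Gata3 and Tox, were also counted among the transcription factors of the double-positive stage. Likewise Il7r is in both the double-negative and the mature list, so the lists are not separate sets. Of 12 genes of mature single-positive cells, 8 were higher on the ratio and 9 in Cy5, none lower, with a median ratio change of 0.67. S1pr1, the receptor for thymic exit, rose by 1.24 and Klf2, the factor that drives it, by 1.08. Of 12 genes of the double-negative stage and Notch, 4 were higher and 2 lower on the ratio, and 5 higher and 2 lower in Cy5. Of 12 myeloid markers 10 were higher on either quantity, with a median ratio change of 1.59. Their mean log2 ratio lay between 0.72 and 1.38 on control arrays and between 2.35 and 3.06 on RAR arrays, with at least 11 of the 12 genes above background on every array of these groups. Of 12 proliferation genes, 7 were lower on the ratio and 6 in Cy5. Of 9 B cell markers, 4 were lower and 1 higher on the ratio, but 3 lower and 3 higher in Cy5. The part of these genes in the changes of the 9 genes was not tested.

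Among 9950 other genes detected on all arrays, the ratio of Satb1 was the most like that of Rag1 over the 24 arrays (r = 0.96), and also the most like those of Cd8b1 (r = 0.96) and Cd8a (r = 0.90). Themis was most like Mrs2 (r = 0.94) and Dntt most like Eola1 (r = 0.92). For Cd4 (Tmc8, r = 0.83), Ptcra (Ankrd46, r = 0.78) and Rag2 (Suv39h1, r = 0.63) the best match was weaker. These are descriptions over arrays that share treatments, slides and the reference channel.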

How the data were processed

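Each of the 24 arrays compared 1 thymocyte sample (Cy5) with the common reference (Cy3) on an Agilent mouse design. The authors deposited Feature Extraction files (version 11.5.1.1 per the file headers) that give, for 62976 spots and each dye, the intensity as a pixel median, a local background median and a processed signal, from which the background had been subtracted and in which the dyes had been normalized within the array. The authors also deposited log2 Cy5/Cy3 values, and 100% of these lay within 0.01 of the log2 ratio recomputed here from processed signals. Control spots and the 183 to 368 outlier spots of an array were removed here, 0 spots were saturated, and the log2 values of repeated spots were averaged to 55681 probes. RefSeq accessions named 28026 of them and left 49.7% without a name. All columns of values matched a sample.

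The main model, run in limma 3.58.1 (R 4.3.3), had a mean for each of the 8 groups and no covariate, with 16 residual and 1.63 prior degrees of freedom. Benjamini-Hochberg adjustment covered all probes of a comparison. Files were read with Python 3.11.15, pandas 2.3.3, numpy 2.4.6 and the R package data.table (version 1.17.8), and plots were drawn with matplotlib 3.10.9. The fit was tested on simulated data. Every member gene was named; of 16 further lists, at most 4 genes of a thymocyte list with the lowest adjusted p in a comparison with control, and the 3 genes most like each member, of which the text gives the first (that of Cd1d1 is not reported here). The members and lists were chosen with earlier results of these data known.

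The alternatives were normexp background correction (offset 50) with loess, quantile normalization, Cy5 scaled to its 75th percentile, the log2 values as deposited, a filter on dim probes, leaving out the farthest value of each group, the slide or the replicate number as a block, array weights, leaving out arrays, unmoderated two-way variances, the mean of all probes of a gene, and a log2 change over 1.5 as threshold. Chosen after seeing the data were Cy5 centred on the 9959 detected genes (processed, raw, with the slide block, and without both outlying female RAR arrays) and low dose against high dose.

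Samples with the same replicate number did not deviate together (correlations from -0.164 to 0.222), so the numbers were not used as pairs. The smallest p of an exact permutation test is 0.1 for 3 arrays against 3 of 1 sex, and 0.005 for the mean of the sexes, permuted within each sex. For RAR against control on the ratio the latter test gave an unadjusted p of 0.005 for Rag1, Dntt, Cd8b1, Cd1d1 and Themis. It gave 0.015 for Ptcra and Cd8a, 0.06 for Cd4 and 0.335 for Rag2. The calls reported above are those of limma.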

Additional observations from a re-analysis of the deposited data

Results flagged for a closer look

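For Rag2 after RAR the 3 male arrays, at 8.22, 8.74 and 8.76 on the log2 ratio, lay above the male control mean of 8.06, and the female arrays, at 5.97, 6.79 and 8.46, lay below the female control mean of 8.80. Every male array thus lay above and every female array below its control mean, though the single arrays of control and RAR overlapped in both sexes, and the difference of the changes was 2.24 (SE 0.81, adjusted p = 0.57 for the interaction term, limma). The Cy3 signal of this probe was above background on 6 of 24 arrays, and in centred Cy5 Rag2 was lower than control in both sexes, by -0.42 in females and -0.91 in males.

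After low dose Rag2 arrays also lay on opposite sides of the control mean in the sexes on the ratio, with a difference of 0.67 (SE 0.81, adjusted p = 0.95). So did Ptcra: the 3 male low dose arrays at 5.66, 6.00 and 6.05 lay above the male control mean of 5.65, and the female arrays at 5.25, 5.28 and 5.31 below the female control mean of 5.54. The difference of 0.51 (SE 0.32, adjusted p = 0.90) was not past the threshold.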

How the results depend on the processing

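Counts of called members on the ratio were 0 for high dose against control, 0 for low dose against control, 4 for RAR against control, 0 for RAR against high dose and 2 for RAR against low dose. The direction of Rag1, Cd8a and Cd8b1 turned with the use of the reference channel, and the cause was not tested. With Cy5 scaled to its 75th percentile, which moves the median of all probes in RAR against control by 0.52, the counts became 1, 1, 6, 6 and 8. Rag1, Cd8a and Cd8b1 were then at -0.54, -1.01 and -0.83 against control, -0.81, -0.64 and -0.59 against high dose, and -0.80, -0.78 and -0.70 against low dose. With Cy5 centred on the detected genes, where the same median was 0.76, the counts were 1, 1, 6, 4 and 6. With raw Cy5, where it was 0.94, they were 1, 1, 4, 3 and 5, Themis (-0.39) and Rag2 (-0.44) losing the call in RAR against control. The reversed values were -0.30, -0.77 and -0.59 for Rag1, Cd8a and Cd8b1 against control, -0.76 for Rag1 against high dose and -0.68 and -0.67 for Rag1 and Cd8a against low dose, and for raw Cy5 -0.38, -0.72, -0.64, then -0.74, then -0.69, -0.61 and -0.60 for Cd8b1. Without both female RAR arrays in Cy5 they were -0.17, -0.66 and -0.52 against control and -0.62 for Rag1 against high dose (counts 1, 1, 4, 3 and 2). With the slide block in Cy5 they were -0.34, -0.69 and -0.51 against control, -0.76 against high dose and -0.74 and -0.63 against low dose (counts 1, 1, 4, 4 and 6). The Cy5 settings centred on detected genes were chosen after seeing the data.

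On the ratio, normexp with loess called 1 member after high dose (Ptcra), 1 for RAR against high dose and 1 for RAR against low dose. Quantile normalization called 1 for RAR against high dose and 1 between the sexes in RAR (Themis, -1.33). Leaving out the farthest value of each group called 4 for RAR against low dose, 1 between the sexes and 7 for the interaction, where 33644 of all probes passed. The slide block called 2 for RAR against control and 0 for RAR against low dose, array weights 1 for RAR against low dose, and the fit without both female RAR arrays 0. The mean of all probes called 1 for RAR against high dose and gave Rag1 -0.21 in RAR against control. At a log2 change over 1.5 the counts were 0 for RAR against control and 0 for RAR against low dose. With the replicate number as a block the counts were 0, 0, 4, 0 and 2, unchanged, and 8 of 24 arrays correlated best with their own number.

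Leaving out 1 array at a time gave 3 to 4 members for RAR against control, 0 to 1 for RAR against high dose, 0 to 2 for RAR against low dose and 0 otherwise. Ptcra against high dose was called without female high dose replicate 2 (-0.61) or male RAR replicate 1 (-0.66), and Ptcra against low dose was not without male RAR replicate 2 (-0.54). Signal over background limits the ratios of Rag2 and of the second Rag1 and Themis probes, whose Cy3 was above background on 6, 2 and 5 of 24 arrays. It also limits the Ptcra ratio in RAR, where Cy3 was above background on 3 of 6 arrays.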
